A study of Homo sapiens with 6 samples.

Results

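The levels of 10 genes for enzymes that cut the extracellular matrix and for inhibitors of these enzymes were measured by RNA-seq in a human melanoma line and in PLX8394-resistant derivatives of it. The genes, chosen by symbol, were the matrix metalloproteinases MMP1, MMP2, MMP3, MMP9 and MMP14, the tissue inhibitors of metalloproteinases TIMP1, TIMP2 and TIMP3, the disintegrin metalloproteinase ADAM12 and the fibroblast activation protein FAP. They were 10 of the 60617 gene IDs in the files, and 8 of them passed the filter on low values that left 16555 genes for testing. MMP3 and MMP9 did not pass it.

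The parental group was 1205LuTR, a 1205Lu melanoma line that carries a GAL4-ELK1 reporter of ERK pathway activity, kept in the solvent DMSO. The PBRT15 and PBRT16 groups were cells of paradox breaker resistant tumors 15 and 16, established from 1205LuTR tumors grown in animals, and both were kept in 500 nM PLX8394, a RAF inhibitor of the class called paradox breakers. Each group held 2 libraries, all made from cultured cells in the same medium. Every resistant library was from drug-treated cells derived from tumors grown in animals, and every parental library from untreated cells. The resistant line, growth as a tumor and the drug therefore cannot be told apart. PBRT15 and PBRT16 are each 1 resistant line, and nothing in the labels says that the 2 libraries of a line came from separate cultures, so the p-values measure the spread between these libraries only.

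Matrix metalloproteinases are zinc enzymes made as inactive precursors that become active when a propeptide is cut off. MMP1 is a collagenase, MMP3 a stromelysin, MMP2 and MMP9 are gelatinases, and MMP14 is anchored in the plasma membrane. TIMPs bind the active site of these enzymes. TIMP2 has a second role, in that a complex of MMP14 and TIMP2 on the cell surface binds the MMP2 precursor so that a free MMP14 nearby can cut it. ADAM12 is a membrane or secreted protein with a disintegrin domain and a zinc protease domain, and FAP is a membrane-bound serine protease that cuts after proline and is widely used as a marker of activated fibroblasts.

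The zinc-binding stretch of the metalloproteinases of the set was located by its known pattern of histidines. Its presence in each of them is therefore not a finding. The 33 bases that code for it in each MANE Select transcript of GENCODE v44 are given 5′ to 3′ on the coding strand, with the codons of the 3 histidines that hold the zinc in capitals. All coordinates are on GRCh38.
MMP1, chr11:102795549-102795581, minus strand, exon 5 of 10: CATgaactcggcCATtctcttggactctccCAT
MMP3, chr11:102840535-102840567, minus strand, exon 5 of 10: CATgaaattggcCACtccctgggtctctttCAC
MMP2, chr16:55491827-55491859, plus strand, exon 8 of 13: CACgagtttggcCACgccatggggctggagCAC
MMP9, chr20:46012453-46012485, plus strand, exon 8 of 13: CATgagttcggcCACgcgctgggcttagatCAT
MMP14, chr14:22843283-22843315, plus strand, exon 5 of 10: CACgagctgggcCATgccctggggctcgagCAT
ADAM12, chr10:126094059-126094091, minus strand, exon 11 of 23: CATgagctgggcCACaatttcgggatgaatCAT
Compared base by base with MMP1, MMP3 had 24 of 33 identical bases, MMP14 had 23, MMP9 had 21, ADAM12 had 20 and MMP2 had 18. FAP is not a zinc enzyme, and the TIMPs are not enzymes, so no such stretch was looked for in them.

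Values below are the deposited signal, a normalized, non-integer measure of the reads of a gene, and a value of about 1 was close to 1 read in genes with few reads. Differences were tested with limma on log2(value + 1) over all 6 libraries, and a gene is said to have risen or fallen where its Benjamini-Hochberg adjusted p over the 16555 genes was at most 0.05. Counts of genes higher or lower between groups are counts of genes that passed this test. Folds were calculated on the log2(value + 1) scale. Since these were bulk libraries, fewer cells expressing a gene and less of its RNA per cell cannot be told apart.

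Against parental cells, 3 of the 8 tested genes rose in PBRT15 (MMP2, TIMP2 and FAP), where 21.6% of all tested genes rose, and 3 fell (TIMP1, TIMP3 and ADAM12), where 19.5% fell. In PBRT16, 2 rose (MMP2 and TIMP2), against 21.1% of all tested genes, and 3 fell (MMP1, TIMP1 and FAP), against 19% of all tested genes. Between the resistant lines, ADAM12 was higher in PBRT16, where 7.5% of all tested genes were higher, and TIMP1 and FAP were lower, where 8.28% were lower. Where a fold of at least 2 was also required, 2 rose and 2 fell in PBRT15 (13.8% and 9.85% of all tested genes), 2 rose and 3 fell in PBRT16 (13.1% and 9.95%), and between the resistant lines 1 was higher and 1 lower (4.49% and 4.77%). The libraries of the groups did not overlap for 7 of the 8 genes in PBRT15 against parental cells, 8 in PBRT16 against parental cells and 5 between the resistant lines, where this was so for 74.9%, 76.1% and 62.7% of all tested genes. The median log2 fold change of the 8 genes was 0.06 in PBRT15, -0.15 in PBRT16 and 0.20 between the resistant lines, and that of all tested genes lay within 0.006 of 0 in each comparison. Both comparisons with parental cells share the same 2 parental libraries and are therefore not independent.

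**Figure D1:**
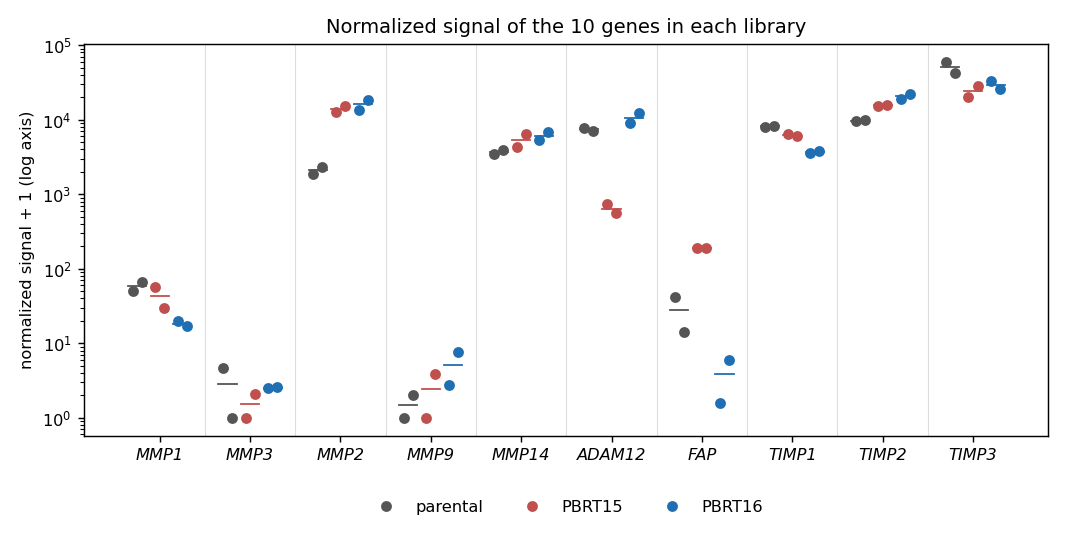
Deposited signal of the 10 genes in the 6 libraries, on a log axis of value + 1, with 1 point per library and a short line at each group mean. MMP2 and TIMP2 were higher in all 4 resistant libraries than in both parental libraries, ADAM12 was low in PBRT15 only, and FAP was highest in PBRT15 and lowest in PBRT16.

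MMP2 (ENSG00000087245, chr16:55389700-55506691, plus strand), the gelatinase that also cuts denatured collagen, rose the most of the metalloproteinases in the set. Its values were 1855 and 2348 in the parental libraries, 12723 and 15353 in PBRT15, and 13656 and 18673 in PBRT16. The lowest resistant library stood far above the highest parental one, while the ranges of the resistant lines overlapped. MMP2 was 6.69-fold higher in PBRT15 (log2 fold change 2.74, SE 0.23, adjusted p = 0.00132) and 7.65-fold higher in PBRT16 (log2 fold change 2.94, SE 0.23, adjusted p = 0.00112). PBRT16 and PBRT15 differed by 0.19 on the log2 scale (95% interval -0.39 to 0.78, adjusted p = 0.604), an interval that still holds differences of more than 1.5-fold. Both rises passed the threshold under all 17 other settings tried, with log2 fold changes of 2.57 to 2.91 in PBRT15 and 2.71 to 3.16 in PBRT16. By the size of its log2 fold change MMP2 ranked 702nd highest of 16555 genes in PBRT15 and 590th in PBRT16.

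MMP14 (ENSG00000157227, chr14:22836560-22849041, plus strand), the membrane-anchored activator of the MMP2 precursor, did not pass the threshold in any comparison. It was measured at 3469 and 3905 in parental cells, compared with 4269 and 6519 in PBRT15 and with 5428 and 6837 in PBRT16. Every resistant library lay above both parental libraries, but the 2 PBRT15 libraries differed 1.53-fold from each other. The log2 difference from parental cells was 0.52 in PBRT15 (95% interval -0.13 to 1.17, adjusted p = 0.162) and 0.73 in PBRT16 (95% interval 0.076 to 1.38, adjusted p = 0.0753). The adjusted p of the PBRT16 difference was at most 0.05 under 5 of 17 other settings, among them the removal of PBRT15 library 1 (0.0419) or 2 (0.0413).

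MMP1 (ENSG00000196611, chr11:102789401-102798160, minus strand), the interstitial collagenase, was present at low levels. It had 48.6 and 66.1 in the parental libraries, 55.8 and 28.6 in PBRT15, and 18.9 and 15.9 in PBRT16. The PBRT15 libraries overlapped the parental range, with 1 library inside it and 1 below it, and both PBRT16 libraries lay under all others. MMP1 fell by 1.65 on the log2 scale in PBRT16 (3.15-fold lower, SE 0.36, adjusted p = 0.0207). In PBRT15 the difference was -0.49 (95% interval -1.41 to 0.43, adjusted p = 0.316), and that between PBRT16 and PBRT15 was -1.16 (95% interval -2.08 to -0.24, adjusted p = 0.0942). The PBRT16 call was lost without any 1 of the parental or PBRT16 libraries, with adjusted p of 0.0562 and 0.0891 without parental library 1 or 2 and 0.0657 and 0.0899 without PBRT16 library 1 or 2. The difference between the resistant lines reached an adjusted p of 0.0497 without PBRT15 library 2.

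MMP3 (ENSG00000149968, chr11:102835801-102843609, minus strand) and MMP9 (ENSG00000100985, chr20:46008908-46016561, plus strand) were near the limit of detection and were not tested. MMP3 ranged from 0 to 3.64 over the 6 libraries and was at 0 in 1 parental and 1 PBRT15 library. MMP9 ranged from 0 to 6.57, with its highest value in PBRT16 library 2 and a value of 1.8 in PBRT16 library 1. A difference between groups was not detectable at this depth for either gene. MMP1 and MMP3 lie in a block of 9 MMP genes on chromosome 11, all on the minus strand within 435 kb (chr11:102520508-102955732). Only MMP7, MMP8 and MMP1 of this block reached a value of 10 in any library.

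TIMP1 (ENSG00000102265, chrX:47582408-47586789, plus strand), a secreted inhibitor, was lower in both resistant lines. Its values were 8055 and 8363 in parental, 6502 and 5971 in PBRT15, and 3596 and 3795 in PBRT16 cells. The 3 groups did not overlap, and the libraries of a group differed by at most 1.09-fold. TIMP1 fell by 1.15 on the log2 scale in PBRT16 (2.22-fold lower, SE 0.12, adjusted p = 0.00231) and was 1.69-fold lower in PBRT16 than in PBRT15 (log2 fold change -0.75, SE 0.12, adjusted p = 0.0201). The smaller fall in PBRT15 (log2 fold change -0.40, 95% interval -0.70 to -0.098, adjusted p = 0.0477) was the call closest to the threshold. It was lost without any single library (adjusted p 0.128 and 0.158 without parental library 1 or 2, 0.0846 and 0.16 without PBRT15 library 1 or 2, 0.0845 and 0.084 without PBRT16 library 1 or 2). The difference between the resistant lines was lost without PBRT15 library 1 (0.0841) or 2 (0.0595) or PBRT16 library 1 (0.0976) or 2 (0.0838), and the fall in PBRT16 was kept in every setting tried.

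The 250 bases before the RefSeq start site of TIMP1 (GRCh38.p14, chrX:47582186-47582435, plus strand) are shown because TIMP1 was the inhibitor of the set whose difference between the resistant lines passed the test. The capitals mark TGAGTAA, the AP-1-like letters known from this promoter, with the first letter at position -101 from the start site.
TIMP1 promoter: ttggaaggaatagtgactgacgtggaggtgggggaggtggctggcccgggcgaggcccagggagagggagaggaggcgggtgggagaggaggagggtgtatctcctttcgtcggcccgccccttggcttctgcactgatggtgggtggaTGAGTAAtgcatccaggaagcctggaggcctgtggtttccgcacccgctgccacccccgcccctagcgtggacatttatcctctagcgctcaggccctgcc
On both strands, TGAGTAA was found in 2.21% of the 35116 RefSeq promoters of the same length and the AP-1 consensus TGANTCA in 6.57%. A match is a description of the letters only. RefSeq promoters were at hand for 4 of the 10 genes (MMP14, TIMP1, TIMP3 and ADAM12). None of the 4 held TGANTCA or the SOX core letters ACAAAG, which 13.7% of all promoters held.

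TIMP2 (ENSG00000035862, chr17:78852977-78925387, minus strand), the inhibitor that also takes part in MMP2 activation, was higher in both resistant lines. It had 9600 and 9877 in the parental libraries, 15285 and 15827 in those of PBRT15, and 19229 and 22264 in those of PBRT16. The 3 groups did not overlap, and their order was the reverse of that of TIMP1. TIMP2 rose 1.60-fold in PBRT15 (log2 fold change 0.68, SE 0.13, adjusted p = 0.0137) and 2.12-fold in PBRT16 (log2 fold change 1.09, SE 0.13, adjusted p = 0.00348). The difference between the resistant lines was 0.41 (95% interval 0.085 to 0.74, adjusted p = 0.0947) and did not pass the threshold. The PBRT15 call was lost without parental library 1 (adjusted p = 0.0673) or 2 (0.0562) or PBRT15 library 2 (0.0588). Exons of TIMP2 overlap those of CEP295NL on the same strand, a gene that was measured at 1.03 to 9.22.

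TIMP3 (ENSG00000100234, chr22:32801705-32863041, plus strand), an inhibitor that binds to the matrix, was lower in both resistant lines than in parental cells and passed the test in PBRT15. It was at 59944 and 41830 in parental cells, compared with 20306 and 27980 in PBRT15 and with 32764 and 25510 in PBRT16. Both resistant lines lay below both parental libraries and overlapped each other. TIMP3 fell 2.10-fold in PBRT15 (log2 fold change -1.07, SE 0.27, adjusted p = 0.0328). The difference in PBRT16 was -0.79 (95% interval -1.49 to -0.09, adjusted p = 0.0732), and the resistant lines differed by 0.28 (95% interval -0.42 to 0.98, adjusted p = 0.529). The PBRT15 call was lost without parental library 1 (adjusted p = 0.125) or PBRT15 library 1 (0.118) or 2 (0.051). TIMP1 and TIMP3 lie inside the synapsin genes SYN1 and SYN3 on the opposite strand, which were measured at 27.7 to 54.8 and 19.4 to 79.0.

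**Figure D2:**
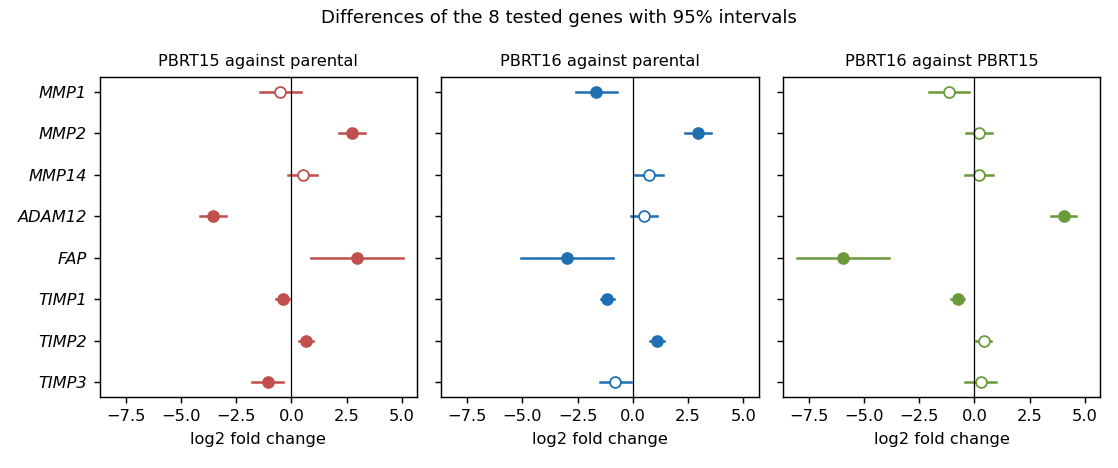
Log2 fold changes of the 8 tested genes in the 3 comparisons, from limma on log2(value + 1), with 95% intervals; filled points passed an adjusted p of 0.05. MMP2 lay near 2.74 and 2.94 against parental cells and near 0 between the resistant lines, whereas ADAM12 (4.04) and FAP (-5.95) lay farthest from 0 between the resistant lines.

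ADAM12 (ENSG00000148848, chr10:126012381-126388477, minus strand) was low in PBRT15 and high in the other groups. Its values were 7854 and 7038 in parental, 734 and 552 in PBRT15, and 9067 and 12154 in PBRT16 cells. Both PBRT15 libraries were well under every other library, and both PBRT16 libraries were above the parental ones. ADAM12 fell 11.7-fold in PBRT15 (log2 fold change -3.54, SE 0.22, adjusted p = 0.000639) and was 16.5-fold higher in PBRT16 than in PBRT15 (log2 fold change 4.04, SE 0.22, adjusted p = 0.00159). The difference between PBRT16 and parental cells was 0.50 (95% interval -0.075 to 1.07, adjusted p = 0.134). Both calls were kept under all 17 other settings, and between the resistant lines ADAM12 had the 71st highest log2 fold change of 16555.

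The 250 bases before the RefSeq start site of ADAM12 (GRCh38.p14, chr10:126388478-126388727, minus strand) are given as the promoter of the metalloproteinase of the set with the largest log2 fold change between the resistant lines. The capitals mark GGGCGG or its reverse complement CCGCCC, the SP1 letters.
ADAM12 promoter: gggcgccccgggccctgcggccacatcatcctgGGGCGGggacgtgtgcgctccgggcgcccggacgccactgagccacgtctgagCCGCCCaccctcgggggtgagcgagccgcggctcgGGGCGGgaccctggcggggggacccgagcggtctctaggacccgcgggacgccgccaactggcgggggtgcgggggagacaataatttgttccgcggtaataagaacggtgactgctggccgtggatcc
It held 3 such matches, 31 CpG dinucleotides and 73.6% G and C. The TIMP3 promoter was like it, with 5 matches, 26 CpG and 72.4% G and C. The TIMP1 promoter held 2 matches, 12 CpG and 64.8% G and C, and that of MMP14 held 1 match, 7 CpG and 56.8%. The median RefSeq promoter had 11 CpG and 58%. The SP1 letters were in 42.6% of all promoters. The letters describe the sequence only, and no binding or methylation was measured.

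FAP (ENSG00000078098, chr2:162170684-162245151, minus strand) moved in opposite directions in the resistant lines. It was measured at 41.5 and 13.1 in the parental libraries, 192 and 190 in those of PBRT15, and 0.6 and 5.04 in those of PBRT16. The 3 groups did not overlap, but the parental libraries differed 3.16-fold. FAP passed the filter through its parental and PBRT15 libraries. It was higher in PBRT15 than in parental cells (7.84-fold, log2 fold change 2.97, SE 0.80, adjusted p = 0.039) and lower in PBRT16 (log2 fold change -2.98, SE 0.80, adjusted p = 0.0393). Between the resistant lines the log2 fold change was -5.95 (SE 0.80, 95% interval -8.02 to -3.87, adjusted p = 0.015), the 43rd lowest of 16555. Since the PBRT16 values were close to 0, the size of this fold rests on the value added before taking logs, and it ranged from -6.90 to -4.71 over the other settings.

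The 3 calls of FAP rested on single libraries. The rise in PBRT15 was lost without parental library 2 (adjusted p = 0.139), PBRT15 library 1 (0.12) or 2 (0.124). The fall in PBRT16 was lost without parental library 1 (0.144), PBRT15 library 1 (0.0697) or 2 (0.0687) or PBRT16 library 1 (0.11), and the difference between the resistant lines without PBRT15 library 1 (0.0731) or 2 (0.0653). Over all settings its log2 fold change was 2.18 to 3.77 in PBRT15 and -3.93 to -1.95 in PBRT16, so its directions were kept in each.

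Some markers of fibroblasts were high in PBRT15 together with FAP, and others were not. The summed signal of 10 fibroblast markers was 9339 to 12001 in parental cells, 76476 to 80578 in PBRT15 and 9071 to 10909 in PBRT16. In PBRT15 6 of the 8 tested markers rose and 1 fell, where 21.6% of all tested genes rose and 19.5% fell. In PBRT16 3 rose and 2 fell, where 21.1% of all tested genes rose and 19% fell. THY1, a surface glycoprotein, was at 0 and 4.46 in parental cells, compared with 19573 and 19758 in PBRT15 and with 8.14 and 6.84 in PBRT16. COL1A2, a chain of type I collagen, was at 14.0 and 23.2, then 38540 and 41287, then 19.9 and 15.4. These markers, THY1 and COL1A2, made up most of the PBRT15 sum. THY1 passed the filter only through PBRT15, and the marker DCN only through the resistant libraries. PRRX1, a mesenchymal factor, fell in both lines, from 4962 and 3215 to 760 and 804 in PBRT15 and to 10.2 and 9.88 in PBRT16 (log2 fold changes -2.35 and -8.50). PDGFRB, a receptor of mural cells and fibroblasts, rose in both, also in PBRT16 where FAP fell, from 161 and 273 to 3023 and 3557 in PBRT15 and 5447 and 6253 in PBRT16, and the proteoglycan gene DCN rose in both as well (log2 fold changes 4.30 and 2.90). Other defining fibroblast genes were near 0 or low in all 6 libraries, with LUM at 0 to 4.12, POSTN at 0 to 3.39 and COL3A1 at 11.1 to 35.7. The part of other cells in the FAP values was not tested.

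The melanoma label was checked against melanocyte lineage markers. The summed signal of 8 such markers was 12314 to 15491 in parental cells, 847 to 953 in PBRT15 and 2214 to 2242 in PBRT16. MITF, the melanocyte lineage factor, went against this sum, at 109 and 113 in the parental libraries, 823 and 927 in those of PBRT15, and 2210 and 2159 in those of PBRT16, and made up most of the resistant sums. It rose by 2.96 and 4.28 on the log2 scale (adjusted p = 0.000202 and 8.44e-05). SOX10, another lineage factor, was at 4360 and 4102 in parental cells and between 0 and 1.49 in the 4 resistant libraries. S100B made up most of the parental sum, at 10992 and 8075, and was between 0 and 1.67 in the resistant libraries. PMEL, MLANA, DCT and TYRP1 were at 11.6 or less in the parental libraries already. The pan-leukocyte gene PTPRC was at 0 to 2.72 in all libraries. The summed endothelial markers were 19.1 to 43.3, 250.6 to 250.8 and 33.4 to 39.0 in parental, PBRT15 and PBRT16 cells. The PBRT15 sum was for the most part TEK (242 and 215), while VWF and KDR fell there (log2 fold changes -1.61 and -1.78). Both falls were at low values. VWF was at 9.18 and 23.2 in parental cells and at 3.48 and 4.91 in PBRT15. KDR was at 5.77 and 8.07 in parental cells and at 0.91 and 1.71 in PBRT15, and passed the filter through PBRT16 (11.4 and 15.2). The summed immune markers were 844 to 1266, 2273 to 2735 and 2267 to 3164 in the same order, for the most part CD68. The keratinocyte markers summed to 293 to 370 in all libraries, for the most part KRT10. KRT14 fell in both lines, from 42.3 and 32.6 to 2.35 and 1.59 in PBRT15 and 1.64 and 1.08 in PBRT16 (log2 fold changes -3.69 and -4.02). TYR, an enzyme of pigment synthesis, was at 0 in all 6 libraries.

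Levels of different genes were compared only per kb of the longest GENCODE v44 transcript. In parental cells the 3 inhibitors stood above every enzyme, with means per kb of 11070 ± 2786 for TIMP3, 7497 ± 199 for TIMP1 and 2667 ± 53.7 for TIMP2 (SD, n = 2). MMP14 (957 ± 80.0) and ADAM12 (938 ± 72.7) followed and overlapped, then MMP2 (598 ± 99.3), MMP1 (29.1 ± 6.29) and FAP (10.1 ± 7.44), and MMP3 and MMP9 overlapped at the bottom. In PBRT15, TIMP1 (5696 ± 343) and TIMP3 (5252 ± 1180) overlapped at the top, and MMP2 (3995 ± 529) overlapped with TIMP2 (4260 ± 105). ADAM12 (81.0 ± 16.2) and FAP (70.9 ± 0.499) overlapped there too, below MMP14 (1400 ± 413) and above MMP1 (21.4 ± 9.75). In PBRT16, TIMP3 (6338 ± 1116) and TIMP2 (5681 ± 588) overlapped, as did TIMP2 and MMP2 (4600 ± 1010), while TIMP1 (3375 ± 129) came after MMP2. MMP14 (1592 ± 259) and ADAM12 (1336 ± 275) overlapped, MMP1 was at 8.83 ± 1.06, and MMP9, FAP and MMP3 lay below 2 in order of their means. The order in the resistant lines depended on the length used. With the union of all exons as length, mean MMP2 exceeded mean TIMP2 in PBRT15 (2983 and 2505) and in PBRT16 (3435 and 3341). In PBRT15 the mean of FAP was then 27.4 and that of ADAM12 65.1.

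The per kb level of MMP2 placed it at the 84.0th percentile of 16511 tested genes with a length in parental cells, the 98.0th in PBRT15 and the 98.4th in PBRT16. ADAM12 stood at the 90.0th, 43.2nd and 93.0th percentile in the same order, and FAP at the 16.8th, 41.0th and 2.57th. TIMP3 was at or above the 98.5th percentile in all 3 groups.

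The per kb levels of TIMP1, TIMP2 and TIMP3 were summed and divided by the sum of MMP1, MMP2, MMP3, MMP9 and MMP14, as a description of RNA only. The ratio was 15.8 and 11.3 in the parental libraries, 3.06 and 2.61 in PBRT15, and 2.95 and 2.13 in PBRT16. All resistant libraries lay below both parental ones, and the resistant lines overlapped. The inhibitor sum was 23025 and 19442 in parental cells and 14541 to 15873 in the resistant libraries, and the MMP sum was 1455 and 1716 in parental cells and 4757 to 7101 in the resistant libraries. With lengths taken as the union of all exons the ratio was 17.3 and 12.04, then 3.12 and 2.72, then 3.11 and 2.16. The size of the drop depended on the genes summed. With all 23 listed MMPs and with TIMP4 added, a choice made after seeing the data, the ratio was 8.63 and 6.95 in the parental libraries, 2.82 and 2.43 in those of PBRT15, and 2.79 and 2.03 in those of PBRT16, still lower in every resistant library. These ratios were not tested and are given as a description.

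The makeup of both sums differed between parental and resistant cells. MMP2 made up 36.3% and 38.9% of the MMP sum in parental, 76.1% and 71.9% in PBRT15, and 73.2% and 74.8% in PBRT16 cells. TIMP2 made up 11.4% and 13.9% of the inhibitor sum in the parental libraries, 28.8% and 27.3% in those of PBRT15, and 33.6% and 40.3% in those of PBRT16. The per kb ratio of TIMP2 to MMP2 was 4.98 and 4.05 in parental cells, compared with 1.16 and 0.992 in PBRT15 and with 1.35 and 1.15 in PBRT16. Another choice of length scales such a ratio alike in all libraries. With the union of all exons, mean TIMP2 was 1568 and mean MMP2 447 in parental cells, and 2505 and 2983 in PBRT15. The ratio of TIMP2 to MMP14, the pair that binds the MMP2 precursor, was 2.92 and 2.67 in the parental libraries, 3.78 and 2.56 in those of PBRT15, and 3.74 and 3.43 in those of PBRT16. Its PBRT15 libraries overlapped both other groups, and both PBRT16 libraries lay above the parental ones.

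**Figure D3:**
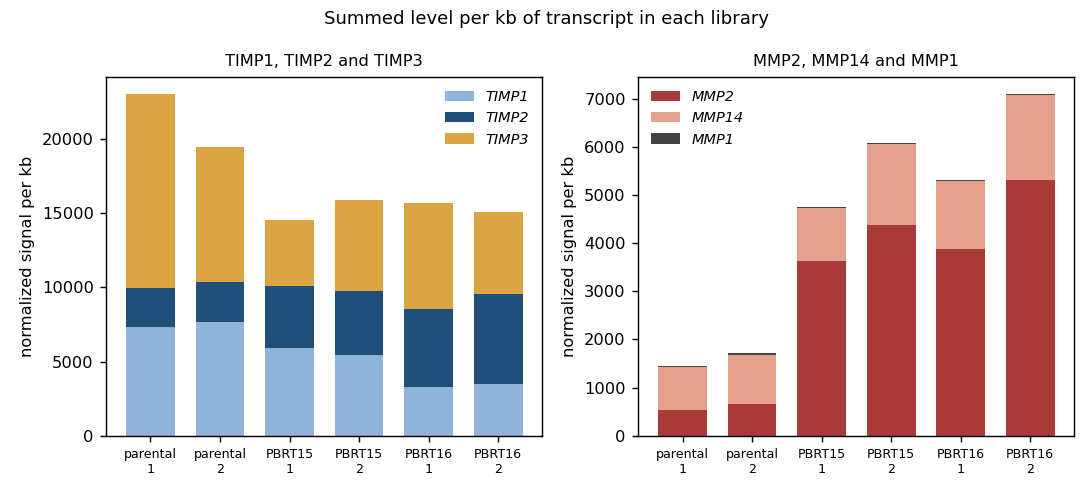
Level per kb of transcript in each library, in units of deposited signal per kb, stacked for TIMP1, TIMP2 and TIMP3 on the left and for MMP2, MMP14 and MMP1 on the right, with a different scale on each side. In parental libraries the TIMP sum was 15.8 and 11.3 times the MMP sum, and in the 4 resistant libraries it was 2.13 to 3.06 times the MMP sum.

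Of the other 18 MMP genes, 10 were tested, and 1 rose and 4 fell in PBRT15, while 2 rose and 4 fell in PBRT16. MMP16, a membrane-type enzyme, was at 8141 and 5987 in parental, 93.0 and 80.0 in PBRT15, and 116 and 144 in PBRT16 cells, with log2 fold changes of -6.32 and -5.74 (adjusted p = 0.000139 and 0.000164). MMP15, another membrane-type enzyme, was at 1572 and 1815 in parental cells and between 180 and 244 in the 4 resistant libraries (log2 fold changes -3.10 and -2.83, adjusted p = 0.000326 and 0.000417). MMP8, the neutrophil collagenase, was at 103 and 53.8 in parental cells and between 0 and 1.10 in the resistant libraries. MMP19 went the other way, from 1.84 and 0 in parental cells to 562 and 531 in PBRT15 and 390 and 386 in PBRT16 (adjusted p = 0.000553 and 0.00063). MMP19 passed the filter only through the resistant libraries, and MMP8 only through the parental ones. MMP24 fell in PBRT15 (adjusted p = 0.0181) and was higher in PBRT16 than in PBRT15 (log2 fold change 2.21, adjusted p = 0.0208), the only other MMP that differed between the resistant lines. Exons of MMP24 overlap those of MMP24OS on the opposite strand, and its value is uncertain to that extent.

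MMP14 was 1 of 6 membrane-type MMPs in the genome annotation, with MMP15, MMP16, MMP17, MMP24 and MMP25. Their summed level per kb was 2149 and 2133 in the parental libraries, 1326 and 1889 in those of PBRT15, and 1587 and 1980 in those of PBRT16. MMP14 supplied 41.9% and 47.5% of this sum in parental cells, compared with 83.6% and 89.6% in PBRT15 and with 88.8% and 89.6% in PBRT16. The share of MMP16 was 32.8% and 24.3% in parental cells and at most 0.634% in the resistant libraries, and that of MMP15 was 18.0% and 20.9% in parental cells and 2.79% to 3.58% in the resistant libraries. MMP14 therefore held most of the membrane-type signal of the resistant lines without having passed the test itself.

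**Figure D4:**
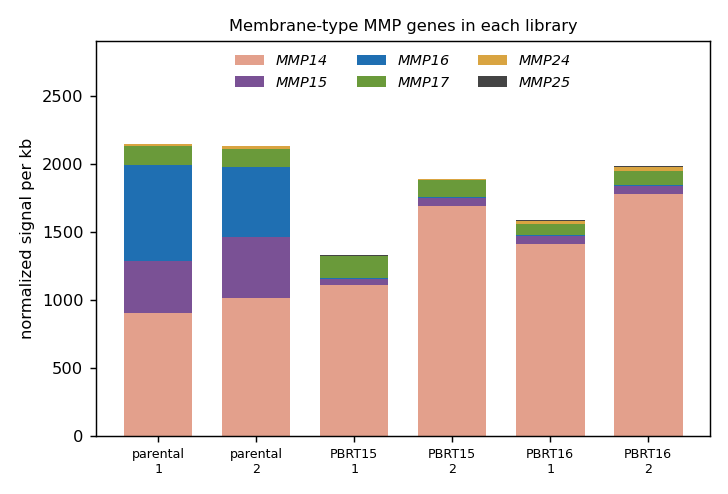
Level per kb of transcript of the 6 membrane-type MMPs, stacked for each library, in units of deposited signal per kb. MMP16 and MMP15 account for a visible part of the parental bars and for little of the resistant ones, where MMP14 makes up 83.6% to 89.6% of the total.

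Of 14 genes listed as inhibitors, receptors and partners of MMPs, 12 were tested, with 5 rises and 3 falls in PBRT15 and 6 rises and 4 falls in PBRT16. The shares over all tested genes were 21.6% and 19.5% in PBRT15, and 21.1% and 19% in PBRT16. TIMP4, the remaining TIMP, was at 1177 and 864 in parental, 38.6 and 50.5 in PBRT15, and 93.6 and 113 in PBRT16 cells (log2 fold changes -4.48 and -3.28, adjusted p = 0.000385 and 0.000878). RECK, a membrane-anchored MMP inhibitor, rose from 745 and 758 to 2222 and 2150 in PBRT15 and to 4091 and 4414 in PBRT16 (log2 fold changes 1.54 and 2.50, adjusted p = 0.000937 and 0.000264). A2M, a protease-trapping plasma protein, was at 1722 and 2497 in parental cells and at 1545 and 2473 in PBRT15, and fell to 48.7 and 61.6 in PBRT16 (log2 fold change -5.22, adjusted p = 0.00056). LRP1, an endocytic receptor that clears MMPs and TIMPs, rose in both lines (log2 fold changes 2.81 and 1.78, adjusted p = 0.000773 and 0.00274). TFPI2, a serine protease inhibitor, fell in both (log2 fold changes -3.15 and -3.73, adjusted p = 0.00288 and 0.00181). Members of the same list, including the inhibitors TIMP4 and RECK, thus moved in opposite directions.

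Of 15 other ADAM genes, 10 were tested, with 3 rises and 2 falls in PBRT15 and 3 rises and 4 falls in PBRT16. Rises and falls made up 21.6% and 19.5% of all tested genes in PBRT15, and 21.1% and 19% in PBRT16. The sheddase genes ADAM9 and ADAM10 rose in both lines, ADAM9 by 1.37 and 1.07 and ADAM10 by 1.05 and 1.18 on the log2 scale. Between the resistant lines 2 passed the test, both lower in PBRT16, ADAM23 (log2 fold change -1.33, adjusted p = 0.00689) and ADAM15 (log2 fold change -0.57, adjusted p = 0.0415). In that comparison 8.28% of all tested genes were lower.

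Of 19 ADAMTS genes, secreted relatives of the ADAMs, 16 were tested, with 9 rises and 4 falls in PBRT15 and 7 rises and 3 falls in PBRT16. ADAMTS2, which cuts the amino-terminal propeptide of fibrillar procollagens, was at 21.9 and 19.3 in the parental libraries, 445 and 451 in those of PBRT15, and 1767 and 2214 in those of PBRT16. Its groups did not overlap, and it rose by 4.38 and 6.52 on the log2 scale (adjusted p = 0.000162 and 6.69e-05). ADAMTS9 fell in both lines, from 3871 and 3637 to 661 and 1163 in PBRT15 and 203 and 195 in PBRT16. ADAMTS4, an aggrecan-cutting enzyme, was at 62.1 and 94.3 in PBRT15 and at 0 to 2.43 in the other 4 libraries, so that, like FAP, it was highest in PBRT15. ADAMTS4 passed the filter only through PBRT15.

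FAP belongs to a family of proline-specific peptidases, of which 9 others were listed and 7 tested. In each resistant line 2 of them rose and 1 fell. All tested genes had 21.6% rises and 19.5% falls in PBRT15, and 21.1% and 19% in PBRT16. DPP4, the closest relative of FAP and encoded near it on chromosome 2, was at 3.40 and 2.72 in parental cells, compared with 83.5 and 106 in PBRT15 and with 35.7 and 50.1 in PBRT16. It passed the filter only through the resistant libraries. DPP4 was higher in PBRT15 (log2 fold change 4.56, adjusted p = 0.000358) and lower in PBRT16 than in PBRT15 (log2 fold change -1.14, adjusted p = 0.0372), but unlike FAP it was above the parental level in both PBRT16 libraries. PREP, a cytosolic prolyl peptidase, fell in both lines by 0.63 and 0.61 on the log2 scale.

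Of 12 AP-1 and ETS factor genes, which are known to act on many MMP promoters, all were tested. In PBRT15 3 rose and 2 fell, in PBRT16 5 rose and 4 fell, and between the resistant lines 2 were higher and 3 lower in PBRT16. The shares over all tested genes were 21.6% and 19.5%, then 21.1% and 19%, then 7.5% and 8.28%. FOSL2, an AP-1 subunit, rose from 679 and 619 in parental cells to 4231 and 4331 in PBRT15 and 7277 and 6666 in PBRT16 (log2 fold changes 2.72 and 3.42, adjusted p = 0.000261 and 0.000144). ETS2 rose in both lines (log2 fold changes 1.47 and 1.53), as did the AP-1 subunit JUNB (log2 fold changes 3.39 and 2.30, adjusted p = 0.0115 and 0.0356). The libraries of JUNB lay far apart, at 565 and 1794 in PBRT15 and 361 and 615 in PBRT16, against 90.9 and 99.7 in parental cells. ETV4, an ETS factor downstream of ERK, fell in both lines (log2 fold changes -1.85 and -3.00), and ETV1 and ETV5 fell in PBRT16 (log2 fold changes -3.67 and -1.81, adjusted p = 0.00206 and 0.00216). ETV1 and ETV5 did not pass the threshold in PBRT15 (adjusted p = 0.613 and 0.163).

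For each tested gene of the set, the profile most like it was taken as the smallest root mean square difference of centered log2 values over the 6 libraries, among genes with a mean of at least 100. TIMP2 was closest to CDIPT (0.0406) and TIMP1 to PRRC2C (0.0446). MMP14 was closest to ANXA4 (0.064), TIMP3 to ABCA11P (0.103), MMP2 to CASP4 (0.138) and MMP1 to CDC14A (0.236). ADAM12 was closest to C2CD2 (0.385) and FAP to DNAH2 (0.708). This distance grows with the size of a gene's changes and with the spread of its libraries. It therefore cannot show that one gene of the set has closer neighbors than another. C2CD2 was at 381 and 319 in parental, 36.7 and 26.9 in PBRT15, and 913 and 681 in PBRT16 cells. DNAH2 was at 113 and 36.5, then 705 and 756, then 4.90 and 4.70.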

How the data were processed

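Cultured melanoma cells were sequenced as 6 stranded TruSeq libraries. According to the study's methods, the authors mapped reads to GRCh38, quantified genes with RSEM and tested counts with DESeq2. The submitters' notes name STAR 2.6.1a as the aligner, whereas the study's reporting summary names another STAR version. The deposited values are a normalized signal, 1 value per gene, and how it was normalized is not stated by the sources used here, so gene-specific shifts could not be undone. The most frequent value above 0 was 0.907 to 1.07 per library, but only 13.5% to 52.2% of low values (up to 30 multiples) were whole multiples of it within 0.02, so no reads were recovered and no count test was run. The total divided by that value, a rough measure of the reads behind a library, was 26188693 to 31109460.

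IDs were matched without version to GENCODE v44 (60357 of 60617), and 45 pseudoautosomal IDs were left out. The filter kept genes whose value, after scaling to library totals, reached 10 in 2 or more libraries and summed to 15 or more. The limma package 3.58.1 (R 4.3.3) was fitted to log2(value + 1) with 3 groups and 3 residual degrees of freedom, after the code was checked on simulated data. Other genes named are up to 3 rises and 3 falls per list and comparison with a group mean of at least 50. Whether counting used strand is not given. Exons of TIMP4, TFPI2, LRP1, ADAM9, JUNB, ETV4 and SOX10 overlap those of a gene on the opposite strand. Those of ADAM15 and ETV5 overlap exons of a gene on the same strand. The values of these genes are uncertain to that extent. The genes of the set and all lists were chosen with earlier results of these data known. Alternatives were other scalings, pseudocounts, filters, spreads, sample sets and a replicate block.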

Additional observations from a re-analysis of the deposited data

Results flagged for a closer look

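For 3 genes the difference from parental cells was not the same in both resistant lines, as tested by comparing PBRT16 directly with PBRT15 in limma. For ADAM12 the effects differed by 4.04 on the log2 scale (adjusted p = 0.00159), since both PBRT15 libraries were below and both PBRT16 libraries above the parental libraries. For FAP they differed by -5.95 (adjusted p = 0.015), with both PBRT15 libraries above and both PBRT16 libraries below the parental libraries. For TIMP1 they differed by -0.75 (adjusted p = 0.0201), both lines being below the parental libraries and PBRT16 the lower of them. The difference of FAP was lost without PBRT15 library 1 or 2 (0.0731 and 0.0653), and that of TIMP1 without either library of either resistant line (0.0595 to 0.0976). That of ADAM12 was kept in all 17 other settings.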

How the results depend on the processing

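No gene of the set changed direction where it was called. Of 408 checks of single genes under other settings, 356 kept their side of the threshold, 44 lost it and 8 gained it. MMP2 in both lines, ADAM12 in PBRT15 and between the lines, and TIMP1 and TIMP2 in PBRT16 were called in every setting. Without a filter the genes called in PBRT15 were 1 higher and 1 lower, those lower in PBRT16 were 1 and those lower in PBRT16 than in PBRT15 were 1. With a spread that followed the expression level 2 genes were higher in PBRT16 than in PBRT15, TIMP2 being added, and with a fold of at least 2 required as well 1 was lower. Leaving out 1 library at a time gave 1 to 3 genes higher and 1 to 2 lower in PBRT15, 2 to 3 higher and 1 to 2 lower in PBRT16, and 1 higher and 0 to 2 lower between the lines. The cause of these changes was not tested.

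The replicate numbers shared by the groups did not pair the libraries by the rule used, since the correlations of same-numbered deviations were 0.018, 0.0384 and 0.136, not all above 0.1. All of these correlations were positive, but those with the parental group were small, so this is only a hint. With the replicate block TIMP1 (adjusted p = 0.0761), TIMP3 (0.0572) and FAP (0.0723) were no longer called in PBRT15, nor FAP (0.0726) in PBRT16, and MMP14 (0.0353) was called in PBRT16. In all 2 genes were higher and 1 lower in PBRT15, 3 higher and 2 lower in PBRT16, and 1 higher and 2 lower between the lines. The share of all genes called with the block was not determined.

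With 2 libraries per group and 3 residual degrees of freedom, the standard errors on the log2 scale were 0.25 for MMP14 and 0.27 for TIMP3, and MMP3 and MMP9 were too low to test.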
